A study of Homo sapiens with 6 samples.

Results

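The genes described here encode the ATP-binding cassette (ABC) proteins of subfamilies A to G. They were taken as every row of the count table whose symbol is ABC, a subfamily letter from A to G and a number, without antisense genes and pseudogenes. The rule found 35 of 19876 gene symbols, 31 of them transporters of subfamilies A, B, C, D and G and 4 of them the non-transporters ABCE1, ABCF1, ABCF2 and ABCF3. The peptide transporter subunits TAP1 and TAP2, ABC proteins under other symbols, are described beside them, and other human ABC genes are not analysed here.

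ABC transporters use the binding and hydrolysis of ATP to move lipids, drugs, conjugated metabolites, haem precursors or fatty acyl-CoA across membranes. ABCA and ABCG proteins mostly handle lipids and sterols, ABCC proteins (the multidrug resistance-associated proteins) export organic anions and glutathione conjugates, ABCB holds both the drug pump P-glycoprotein and carriers of the mitochondrial membrane, and ABCD proteins carry fatty acids into peroxisomes or cobalamin out of lysosomes. ABCE1 and the ABCF proteins have the same ATP-binding cassettes but no membrane-spanning part and act on ribosomes, so they serve as family members that are not transporters.

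RNA was sequenced from A549, a permanent human cell line derived from a lung adenocarcinoma and labelled WT in genotype. One group of 3 libraries came from cells cultured with rhTR11B, a name the labels do not spell out, and the other 3 from cells given phosphate-buffered saline (PBS) as the negative control. Both groups grew in DMEM with fetal bovine serum, penicillin and streptomycin, and the labels give neither a dose nor a duration. The libraries are called biological replicates without mention of separate cultures, so the p-values rest on a spread between libraries that may be technical. In bulk RNA, fewer cells of a type and less RNA per cell cannot be told apart.

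Libraries held 36315751 to 36992958 counts with rhTR11B and 37203313 to 38148838 counts with PBS, and the ABC members took 0.13% to 0.14% of the counts with rhTR11B and 0.125% to 0.128% with PBS. Of the epithelial markers listed, the keratins KRT8 and KRT18 were abundant (mean 460 and 454 FPKM over all libraries), while EPCAM, KRT19 and CDH1 had at most 10, 5 and 1 counts in any library. Of the alveolar type II markers in the table, LAMP3 and NAPSA had a mean of 0.14 and 0.188 FPKM and SFTPD at most 1 count, so these defining markers were at or near 0 in libraries labelled as lung adenocarcinoma cells. Markers of hepatocytes and endothelial cells summed to at most 0.0931 FPKM in any library, those of blood cells to 0.244 to 0.489 FPKM with rhTR11B and 0.161 to 0.356 FPKM with PBS, and those of fibroblasts to 0.774 to 1.25 FPKM with rhTR11B and 0.481 to 0.668 FPKM with PBS, mostly COL1A1. The mitochondrially encoded genes took 7.88% to 10.4% of counts with rhTR11B and 6.63% to 7.71% with PBS, and cytosolic ribosomal protein genes took 3.83% to 4.54% with rhTR11B and 4.97% to 5.12% with PBS. Replicate 3 of rhTR11B stood apart, with the highest mitochondrial share and a first principal component of 25.7, against 2.66 and 8.63 in the other rhTR11B libraries and -18.4 to -5.96 in the PBS libraries. Several results are also given without that library, and the part of the mitochondrial, ribosomal and fibroblast marker differences in the results was not tested.

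Promoter windows, the 250 bases before the RefSeq start on GRCh38.p14, were found for 29 of the 35 members. ABCC1 and ABCC3, which passed the test below, were not among them. The windows of 3 genes are shown, ABCA2 and ABCA3, which passed as well, and the non-transporter ABCE1, whose fold change had the other sign without passing. Each is printed 5′ to 3′ on the gene's strand, up to the base before the start, and the capitals mark the motif named after it.
ABCA3 (chr16:2340729-2340978, minus strand): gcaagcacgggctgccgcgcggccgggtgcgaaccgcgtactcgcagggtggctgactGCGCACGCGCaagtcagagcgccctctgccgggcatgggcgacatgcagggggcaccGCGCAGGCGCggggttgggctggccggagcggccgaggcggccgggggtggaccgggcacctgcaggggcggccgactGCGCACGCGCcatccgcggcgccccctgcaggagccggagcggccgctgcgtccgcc
ABCA2 (chr9:137028923-137029172, minus strand): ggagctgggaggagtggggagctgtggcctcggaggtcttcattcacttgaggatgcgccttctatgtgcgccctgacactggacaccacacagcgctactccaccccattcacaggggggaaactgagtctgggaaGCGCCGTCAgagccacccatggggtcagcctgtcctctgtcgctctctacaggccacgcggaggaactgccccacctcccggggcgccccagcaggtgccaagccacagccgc
ABCE1 (chr4:145098061-145098310, plus strand): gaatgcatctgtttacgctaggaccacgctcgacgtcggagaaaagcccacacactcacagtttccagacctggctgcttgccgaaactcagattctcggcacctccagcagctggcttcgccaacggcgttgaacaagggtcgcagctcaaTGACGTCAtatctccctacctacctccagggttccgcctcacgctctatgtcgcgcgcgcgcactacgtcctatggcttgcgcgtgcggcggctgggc
In ABCA3 the capitals are the core that nuclear respiratory factor 1 binds, GCGCA and GCGC with any 1 base between them, found 3 times. Searched on both strands, as for all motifs, this core was present in 5.07% of 35116 promoter windows of the same length, and at least 3 copies in 0.148%. It was also found in windows of ABCC5, ABCD3 and ABCF3. In ABCA2 they are TGACNNNGC, the core of the antioxidant response element, read on the opposite strand and present in 10.9% of all windows and in those of 9 members, including ABCA3, where it overlaps the first match printed. In ABCE1 they are TGACGTCA, the cAMP response element, present in 1.65% of all windows and in no other member's window. The motifs were picked after the windows had been read, and a match describes letters only.

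The drug and conjugate exporters ABCC3 and ABCC1 and the lipid transporters ABCA2 and ABCA3 rose in rhTR11B cells, by 1.18-fold to 1.39-fold over PBS. Most other transporters of the plasma membrane and of lysosomes or endosomes had a positive log2 fold change without passing the test, and the cytosolic ABCE1 and ABCF genes a negative one. With edgeR's quasi-likelihood test, 28 of the 35 members had enough counts to be tested, and 4 rose and 0 fell at a Benjamini-Hochberg adjusted p under 0.05 over all 13567 tested genes. The 4 make up 14.3% of the tested members, against 2.92% of all tested genes called higher, 0.678% called lower and 3.6% called in either direction. The family was chosen with earlier results of these data known, so such shares are descriptions and not a test of the family. Before adjustment, 9 members were higher and 2 lower at p under 0.05 (32.1% and 7.14%), against 13.8% and 10.3% of all tested genes. DESeq2 called 7 members higher and 0 lower (20% and 0% of the 35), against 3.72% and 1.81% of all 19875 genes with a p. Without PBS replicate 2 edgeR called 0 members, with 7 at an unadjusted p under 0.05 (25%, against 16.4% of all genes in that fit), and it called 18 genes higher in all. Without PBS replicate 3 it called 0 members, with 10 at an unadjusted p under 0.05 (35.7%, against 17.6% of all genes in that fit), and 9 genes higher in all.

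The median log2 fold change (rhTR11B over PBS) was 0.19 over the 24 tested transporters and -0.08 over ABCE1 and the ABCF genes, against 0 over all tested genes. The sign was positive for 18 of 24 tested transporters and for 0 of 4 non-transporters, and for 50% of all tested genes. By compartment the median was 0.23 for 11 tested plasma membrane transporters, 0.17 for 6 of lysosomes and endosomes and -0.05 for 4 of mitochondria. The 3 rhTR11B libraries lay wholly above the 3 PBS libraries for 8 of 28 tested members (28.6%) and wholly below for 3 (10.7%), against 15.1% and 14% of all tested genes. Without rhTR11B replicate 3 the median was 0.09 over the transporters and -0.10 over ABCE1 and the ABCF genes, 0.17 for plasma membrane members and 0.04 for those of lysosomes and endosomes. The difference between compartments was not tested.

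**Figure D1:**
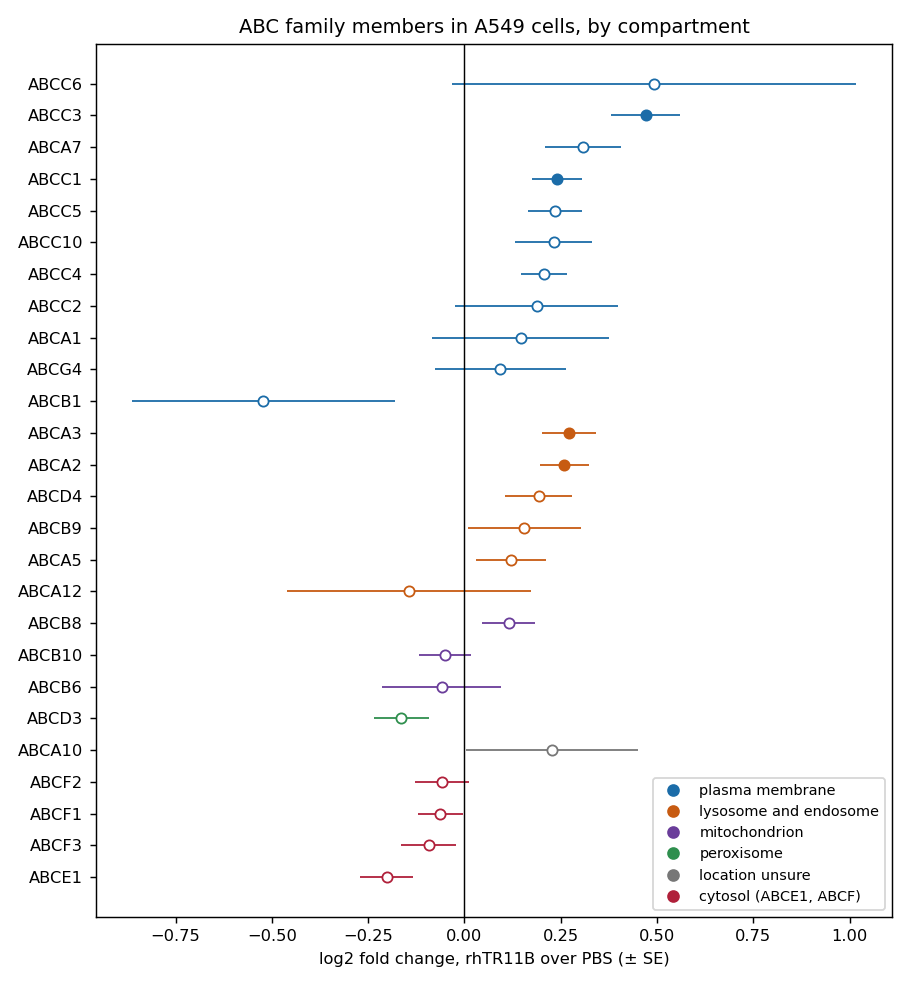
Log2 fold change of 26 of the 28 tested ABC members (horizontal axis, rhTR11B over PBS, bars are the standard error), in rows grouped and coloured by compartment. Filled points mark the 4 members with an adjusted p under 0.05, ABCC3, ABCC1, ABCA3 and ABCA2, while the 4 cytosolic members all lie left of 0.

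The multidrug resistance-associated proteins of subfamily C had a positive log2 fold change for all 7 tested members, with a median of 0.23, and 2 of them rose. Of all tested genes, 50% had a positive sign and 2.92% were called higher. Of those at least as long as the median transporter, 57.3% had a positive sign and 2.96% were called higher. ABCC3 (chromosome 17, 50634881 to 50692253 on GRCh38.p14), an exporter of bile salts and glucuronides on the basolateral membrane, had 21.8, 22.5 and 26.3 CPM (counts scaled to library size and composition) with rhTR11B, against 16.6, 16.0 and 18.3 CPM with PBS. All 3 rhTR11B libraries were above all 3 PBS libraries. ABCC3 averaged 23.5 ± 2.41 CPM with rhTR11B and 17 ± 1.18 CPM with PBS (SD, n = 3 each), a log2 fold change of 0.47 (SE 0.09, edgeR adjusted p = 0.0117). ABCC3 passed in 4 of 6 fits with 1 library left out, the exceptions being those without PBS replicate 2 (adjusted p = 0.102) and without PBS replicate 3 (adjusted p = 0.0749).

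ABCC1 (chromosome 16, 15949143 to 16143053), the exporter of glutathione conjugates and leukotriene C4, had 125, 131 and 143 CPM with rhTR11B and 112, 107 and 119 CPM with PBS. The groups did not overlap. Its log2 fold change was 0.24 (SE 0.06, edgeR adjusted p = 0.0472). With each library left out in turn it passed in 1 of 6 fits, that without rhTR11B replicate 1, and the adjusted p ran from 0.0186 to 0.217.

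ABCC4, which exports cyclic nucleotides and prostaglandins, and ABCC5, an exporter of cyclic GMP and nucleotide analogues, lay just outside the threshold. ABCC4 had 113, 117 and 124 CPM with rhTR11B, against 105, 98.7 and 102 CPM with PBS (log2 fold change 0.21, SE 0.06, edgeR adjusted p = 0.0562). ABCC5 had 67.6, 68.1 and 79.8 CPM with rhTR11B, against 64.2, 59.3 and 59.6 CPM with PBS (log2 fold change 0.23, SE 0.07, edgeR adjusted p = 0.0630). Neither gene's groups overlapped, and DESeq2 called both (adjusted p = 0.0203 for ABCC4 and 0.0346 for ABCC5). Without rhTR11B replicate 3 ABCC5 had 0.15. ABCC10, another exporter of conjugates and drugs, had 33.9, 30.4 and 41.4 CPM with rhTR11B and 32.6, 26.3 and 31.0 CPM with PBS (log2 fold change 0.23, edgeR adjusted p = 0.166), with overlapping groups and 0.10 without rhTR11B replicate 3. ABCC2, the canalicular conjugate pump of liver, was low at 1.89 to 2.44 CPM with rhTR11B and 1.63 to 2.03 CPM with PBS (0.19, edgeR adjusted p = 0.628). ABCC6, mutated in pseudoxanthoma elasticum, had 14, 17 and 11 counts with rhTR11B and 11, 18 and 2 with PBS. Its log2 fold change of 0.49 (SE 0.53) rests on PBS replicate 3 and was 0.01 without it, and its pseudogene copies in the genome make its counts uncertain.

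**Figure D2:**
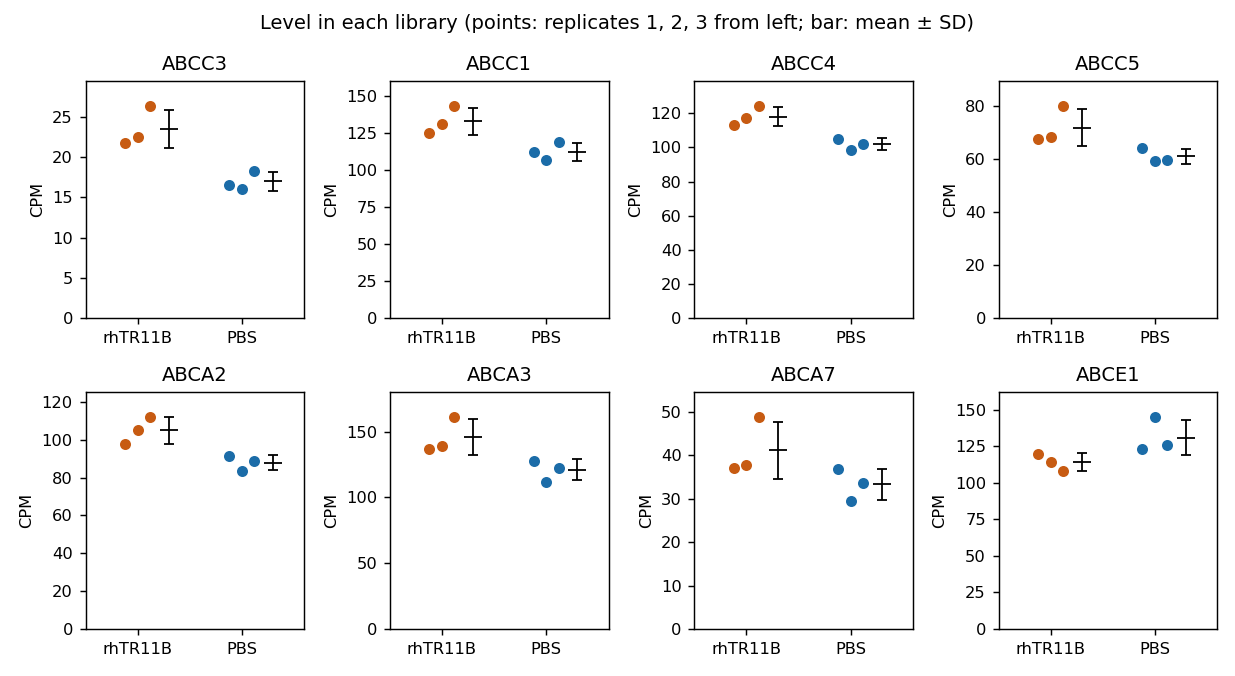
CPM in each library (vertical axes start at 0) for ABCC3, ABCC1, ABCC4, ABCC5, ABCA2, ABCA3, ABCA7 and ABCE1, with rhTR11B left and PBS right, points for replicates 1 to 3 and a bar for mean ± SD. In the first 7 panels every rhTR11B point lies above every PBS point, with replicate 3 the highest, and in the ABCE1 panel every rhTR11B point lies below.

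Of the tested lipid transporters of subfamily A, 2 of 7 rose and 6 had a positive log2 fold change, against 2.92% and 50% of all tested genes. Among tested genes at least as long as the median transporter these shares were 2.96% and 57.3%. ABCA3 (chromosome 16, 2275881 to 2340728) is the phospholipid transporter that loads surfactant lipid into lamellar bodies of alveolar type II cells. Among the 31 transporters found by the symbol rule, it had the highest level per gene length. It averaged 21.9 ± 1.81 FPKM with rhTR11B and 18.4 ± 1.15 FPKM with PBS (SD, n = 3 each). It had 137, 139 and 161 CPM with rhTR11B, against 128, 112 and 122 CPM with PBS, without overlap (log2 fold change 0.27, SE 0.07, edgeR adjusted p = 0.0429). Beside it, SFTPD, NAPSA and LAMP3 were at or near 0, while LPCAT1, an enzyme of surfactant phospholipid synthesis, averaged 96.9 FPKM over all libraries. Without rhTR11B replicate 3 the log2 fold change of ABCA3 was 0.19 (edgeR adjusted p = 0.0554).

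ABCA2 (chromosome 9, 137007234 to 137028922), a transporter of endolysosomes involved in sterol and sphingolipid handling, had 97.9, 105 and 112 CPM with rhTR11B, against 91.2, 83.5 and 88.9 CPM with PBS. The groups did not overlap, and the log2 fold change was 0.26 (SE 0.06, edgeR adjusted p = 0.0361). With a library left out, ABCA2 passed without rhTR11B replicate 1 or 3 and ABCA3 without rhTR11B replicate 1 or 2. Each missed the threshold when any one PBS library was left out (highest adjusted p = 0.190 for ABCA2 and 0.214 for ABCA3).

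ABCA7, a phospholipid transporter linked to Alzheimer's disease risk, had 37.1, 37.8 and 48.8 CPM with rhTR11B, against 36.8, 29.5 and 33.6 CPM with PBS (log2 fold change 0.31, edgeR adjusted p = 0.0747). Its groups did not overlap, but rhTR11B replicates 1 and 2 lay close to PBS replicate 1, and without rhTR11B replicate 3 the log2 fold change was 0.17. DESeq2 called it (adjusted p = 0.0461), and edgeR did without rhTR11B replicate 1 (0.38, adjusted p = 0.0244). ABCA5, a lysosomal member, had 36.4 to 44.7 CPM with rhTR11B and 31.2 to 39.9 CPM with PBS (0.12, edgeR adjusted p = 0.442), and 0.03 without rhTR11B replicate 3. ABCA1, the cholesterol and phospholipid efflux transporter that builds HDL, was low, with 53, 59 and 62 counts with rhTR11B and 50, 60 and 54 with PBS (0.15, SE 0.23, edgeR adjusted p = 0.742), and 0.08 without rhTR11B replicate 3. ABCA10 (0.23, edgeR adjusted p = 0.567) and the epidermal lipid transporter ABCA12 (-0.14, edgeR adjusted p = 0.818, and -0.31 without rhTR11B replicate 3) were also low, and the annotated ends of ABCA10 and ABCA5 overlap on chromosome 17. The sterol exporter ABCG4 had 134, 160 and 205 counts with rhTR11B and 179, 159 and 150 with PBS (0.09, edgeR adjusted p = 0.781), and -0.10 without rhTR11B replicate 3.

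In subfamily B edgeR called 0 of the 6 tested members, 0 reached p under 0.05 before adjustment and DESeq2 called 0. The drug efflux pump P-glycoprotein, encoded by ABCB1, had 19, 15 and 16 counts with rhTR11B and 27, 26 and 22 with PBS. These do not overlap, but the log2 fold change of -0.52 had an SE of 0.34 (edgeR adjusted p = 0.364), so a difference was not detectable at this depth. Among the mitochondrial carriers, ABCB8 had 72.5, 71.0 and 78.8 CPM with rhTR11B and 71.8, 62.4 and 71.1 CPM with PBS (log2 fold change 0.11, SE 0.07, edgeR adjusted p = 0.314), and 0.07 without rhTR11B replicate 3. ABCB10, which takes part in haem synthesis, had 44.5, 44.7 and 47.1 CPM with rhTR11B and 47.1, 50.1 and 44.0 CPM with PBS (-0.05, SE 0.07, edgeR adjusted p = 0.693). The groups overlapped for both. ABCB6, placed in mitochondria here although endolysosomal sites are also described, had -0.06 (edgeR adjusted p = 0.854), and the lysosomal peptide transporter ABCB9 had 0.15 (edgeR adjusted p = 0.548) and -0.05 without rhTR11B replicate 3.

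The peptide transporter subunits that belong to subfamily B under other symbols, TAP1 and TAP2, both rose (2 of 2 tested). Of all tested genes 2.92% were called higher. TAP1 had 135, 144 and 159 CPM with rhTR11B, against 126, 115 and 117 CPM with PBS (log2 fold change 0.29, edgeR adjusted p = 0.0257). TAP2 had 199, 206 and 222 CPM with rhTR11B, against 181, 175 and 180 CPM with PBS (0.22, edgeR adjusted p = 0.0438). Both passed with either kind of offset for GC content and gene length described below. TAP1 did not pass without PBS replicate 2 or 3, and TAP2 passed only without rhTR11B replicate 1 or 3.

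In subfamily D edgeR called 0 of the 3 tested members and DESeq2 called 0. Before adjustment 1 was higher and 1 lower at p under 0.05, against 13.8% and 10.3% of all tested genes. ABCD3, the abundant peroxisomal importer of branched and bile acid precursors, had 49.2, 48.4 and 45.0 CPM with rhTR11B, against 52.3, 58.3 and 49.2 CPM with PBS (log2 fold change -0.16, SE 0.07, edgeR adjusted p = 0.167), without overlap. ABCD4, which moves cobalamin out of lysosomes, had 44.2, 46.0 and 58.9 CPM with rhTR11B, against 43.9, 43.3 and 43.2 CPM with PBS (0.19, SE 0.09, edgeR adjusted p = 0.183). The groups did not overlap, but the log2 fold change was 0.05 without rhTR11B replicate 3.

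Of the non-transporters, ABCF1 and ABCE1 had the highest levels per gene length among the 35 members of the rule. ABCF1, a factor of translation initiation, averaged 40.6 ± 1.82 FPKM with rhTR11B and 42.8 ± 1.35 FPKM with PBS, and ABCE1, which splits ribosomes for recycling, averaged 29.2 ± 1.77 FPKM with rhTR11B and 34.0 ± 3.29 FPKM with PBS (SD, n = 3 each). ABCE1 had 120, 114 and 108 CPM with rhTR11B, against 123, 145 and 126 CPM with PBS. All rhTR11B libraries were below all PBS libraries, yet the log2 fold change of -0.20 (SE 0.07) did not pass with edgeR (adjusted p = 0.0860) or with DESeq2 (adjusted p = 0.0569), and it was -0.12 without PBS replicate 2. It passed with edgeR without rhTR11B replicate 1 (-0.24, adjusted p = 0.0488) and with no low-count filter (-0.21, adjusted p = 0.0263). ABCF1 had 145, 138 and 134 CPM with rhTR11B and 140, 146 and 150 CPM with PBS (-0.06, SE 0.06, edgeR adjusted p = 0.537), and ABCF3 had 38.6, 36.2 and 40.8 CPM with rhTR11B and 42.8, 38.3 and 42.1 CPM with PBS (-0.09, SE 0.07, edgeR adjusted p = 0.443). ABCF2 had -0.06 (edgeR adjusted p = 0.662), and the groups overlapped for all 3 ABCF genes. RefSeq lists pseudogenes of ABCE1 and ABCF2, and also of ABCB10, so their counts may be shared with those copies. Cytosolic ribosomal protein genes also took a smaller share of counts in the rhTR11B libraries, and its part in these values was not tested.

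**Figure D3:**
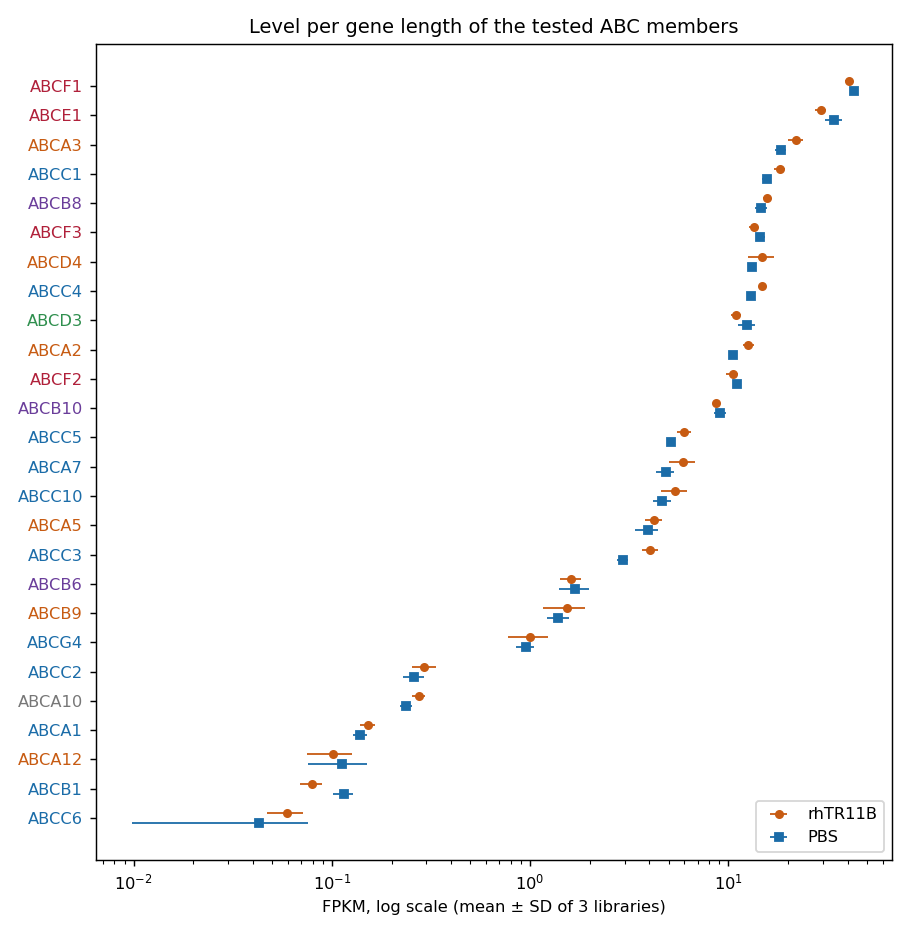
Mean FPKM ± SD of 3 libraries for 26 of the 28 tested ABC members on a log axis, rhTR11B as circles and PBS as squares, ordered by level, with gene names coloured by compartment as in the plot of fold changes. Of the members drawn, ABCF1 and ABCE1 are highest, ABCA3 is the highest transporter, and ABCA1, ABCA12, ABCB1 and ABCC6 lie under 0.2 FPKM.

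Levels within the 35 members of the rule ranged from the 42.8 FPKM of ABCF1 with PBS down to members listed at or near 0. TAP1 and TAP2, outside the rule, averaged 46.5 and 31.6 FPKM over all libraries. ABCA6, ABCA8, ABCA9, ABCA13, ABCB4, ABCC11 and ABCD2 were too low to test, with at most 10 counts in any library. Neighbours in the middle of the order were not all separated by their spread. ABCB8 averaged 15.6 ± 0.678 FPKM with rhTR11B and 14.6 ± 1.04 FPKM with PBS, and ABCD4 14.8 ± 2.23 FPKM with rhTR11B and 13.1 ± 0.147 FPKM with PBS. ABCC4 averaged 14.8 ± 0.601 FPKM with rhTR11B and 13 ± 0.392 FPKM with PBS, and ABCF3 13.4 ± 0.626 FPKM with rhTR11B and 14.5 ± 0.772 FPKM with PBS. With rhTR11B, ABCD4 could not be set apart from ABCB8, ABCC4 or ABCF3 within its SD. Summed over the 14 plasma membrane members, the level was 406.2, 415.8 and 473.3 CPM with rhTR11B, against 376.4, 345.5 and 371.6 CPM with PBS. The 6 members of lysosomes and endosomes summed to 326.2, 337.6 and 391.8 CPM with rhTR11B, against 314.5, 287.3 and 295.9 CPM with PBS. The 4 mitochondrial members summed to 165.7, 161.8 and 172.6 CPM with rhTR11B, against 166.9, 162.6 and 166.1 CPM with PBS, and the 4 cytosolic ones to 354.4, 332.7 and 330.7 CPM with rhTR11B, against 353.9, 377.4 and 369.8 CPM with PBS. The plasma membrane and lysosomal sums did not overlap between groups, and the mitochondrial and cytosolic sums did. They are descriptions and had no test.

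The members also differ in length, and the relation of length to the fold changes was described without a test. In the lengths used for FPKM, the median was 6457.5 bases for the tested transporters, 3646 for ABCE1 and the ABCF genes and 3981 for all tested genes. Across the 28 tested members, which share the same libraries, Spearman's rho between length and log2 fold change was 0.41. It was 0.57 across the 21 members with a mean of at least 1 FPKM and 0.25 across the 24 transporters. All 3349 tested genes at least as long as the median transporter had a median of 0.02 and a positive sign in 57.3%, with 2.96% called higher. Among these long genes 15.6% were higher and 4.99% lower at p under 0.05 before adjustment, and 19.4% lay wholly above and 8.39% wholly below PBS. With per-library offsets for GC content and length fitted by least squares, ABCC3 passed (0.39, edgeR adjusted p = 0.0146) and ABCA2 (0.12, 0.129), ABCA3 (0.16, 0.0802) and ABCC1 (0.16, 0.0722) did not. With offsets fitted robustly on genes over 5 CPM, ABCC3 (0.43, adjusted p = 0.0118), ABCA3 (0.20, 0.0453), ABCC1 (0.19, 0.0437) and ABCC4 (0.20, 0.0444) passed and ABCA2 (0.16, 0.0615) did not. The median over the transporters was 0.13 with the first and 0.16 with the second kind of offset, and that of ABCE1 and the ABCF genes -0.13 and -0.08.

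**Figure D4:**
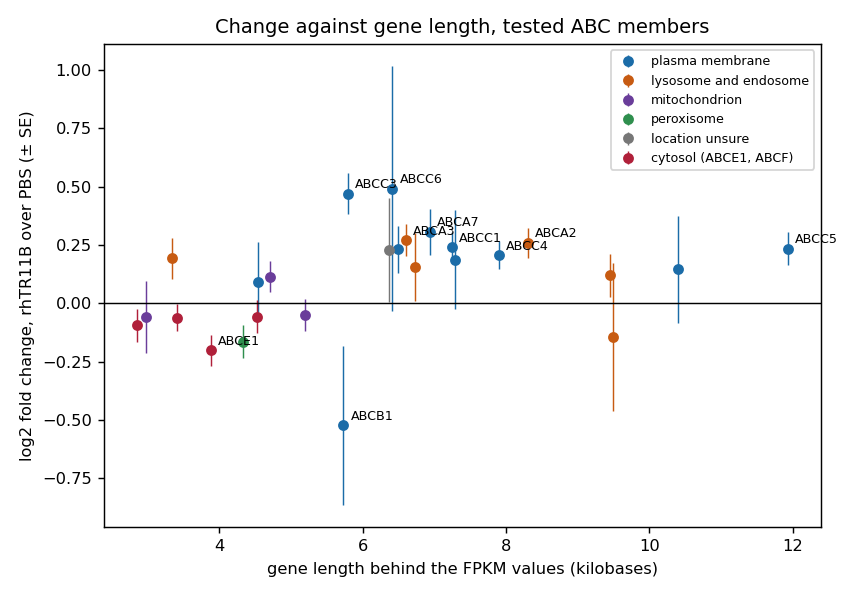
Log2 fold change (vertical axis, bars are the standard error) against the gene length behind the FPKM values in kilobases, for 26 of the 28 tested ABC members coloured by compartment. The cytosolic members are short and lie below 0, and most members above 6 kilobases lie above 0.

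**Figure D5:**
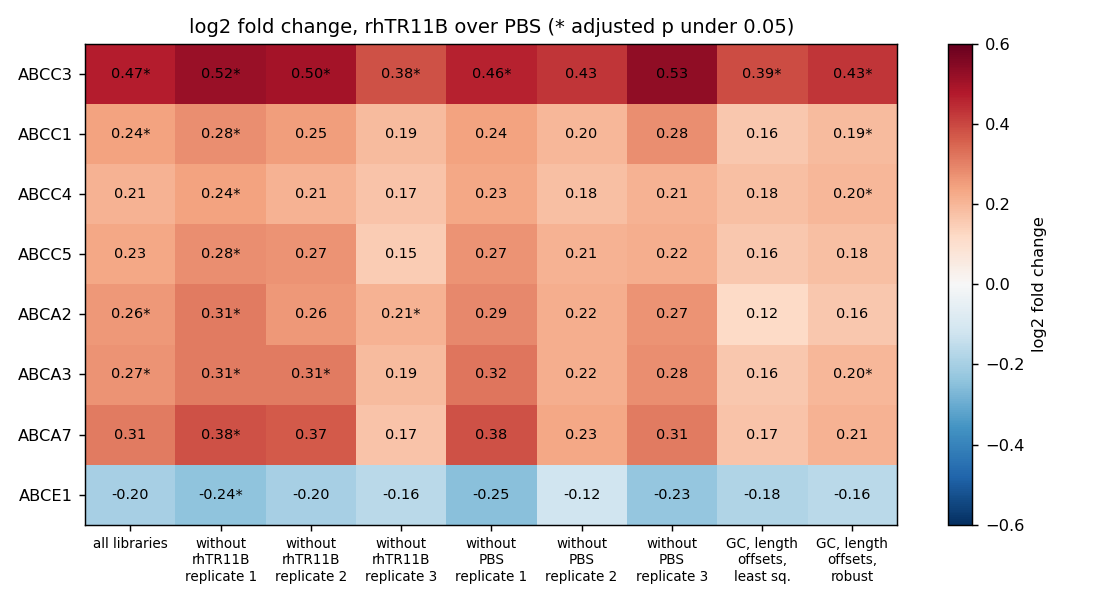
Log2 fold change of 8 members (rows) with all libraries, with each library left out and with the 2 kinds of offset for GC content and length (columns), where an asterisk marks an adjusted p under 0.05. Signs stay the same across the columns, and no member has an asterisk without PBS replicate 2 or without PBS replicate 3.

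Genes that work beside the transporters were described from lists. For comparison, edgeR called 2.92% of all tested genes higher and 0.678% lower. DESeq2 called 3.72% of all genes with a p higher and 1.81% lower. Where a list had 1 called gene, the count describes that gene and not the list. In lysosomal and intracellular cholesterol transport, 3 of 14 tested genes rose and 0 fell, with a median of 0.17. LIPA, the lysosomal acid lipase, had 133, 135 and 161 CPM with rhTR11B, against 121, 110 and 111 CPM with PBS (log2 fold change 0.33, edgeR adjusted p = 0.0227). The lysosomal membrane protein SCARB2 (0.26, edgeR adjusted p = 0.0298) and the lysosomal sterol carrier NPC2 (0.29, 0.0438) rose as well. All 3 passed with both kinds of offset, and none passed without PBS replicate 2 or 3. SCARB2 also missed the threshold without PBS replicate 1, and NPC2 without PBS replicate 1 or rhTR11B replicate 3. DESeq2 called these 3 and SOAT1, which esterifies cholesterol (edgeR 0.22, adjusted p = 0.0758).

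Among partners of ABCA3 in the lamellar body and surfactant list, 1 of 5 tested genes rose and the median was 0.22. This was the lysosomal protease CTSH, with 4.31, 5.31 and 5.89 CPM with rhTR11B, against 2.99, 2.94 and 2.91 CPM with PBS (0.81, SE 0.16, edgeR adjusted p = 0.0145). DESeq2 called CTSH and LPCAT1 (edgeR 0.22, adjusted p = 0.0760). Of 12 tested genes of the LXR axis, which drives sterol efflux, 1 rose, the fatty acid desaturase SCD, with 355, 356 and 390 CPM with rhTR11B, against 322, 297 and 302 CPM with PBS (0.26, edgeR adjusted p = 0.0324), and the median was 0.01. DESeq2 called SCD and the phospholipid remodelling enzyme LPCAT3 (edgeR 0.28, adjusted p = 0.0516). Neither CTSH nor SCD passed with edgeR without PBS replicate 2 or 3.

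In the list of 13 tested xenobiotic sensors and NRF2 targets, which holds regulators of drug transporters, edgeR called 0 genes and DESeq2 called 0. Before adjustment 3 reached p under 0.05, all lower, against 10.3% of all tested genes lower. A negative log2 fold change was seen in 12 of 13, against 6779 of all 13567 tested genes, and the median was -0.11. Among 12 ribosome recycling and initiation partners of ABCE1, edgeR called 0. Before adjustment 7 were lower at p under 0.05, against 10.3% of all tested genes. DESeq2 called DENR and EIF2S2, both factors of initiation, lower, and the median was -0.16. Among 14 peroxisomal genes, edgeR and DESeq2 each called 0 and the median was -0.01. At p under 0.05 before adjustment 1 was higher, against 13.8% of all tested genes.

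Of 12 partners of the mitochondrial carriers 1 rose, the mitochondrial iron importer SLC25A37, with 164, 174 and 185 CPM with rhTR11B, against 142, 126 and 133 CPM with PBS. The groups did not overlap, and the log2 fold change was 0.38 (SE 0.06, edgeR adjusted p = 0.00556). It did not pass without PBS replicate 2 (adjusted p = 0.0709) or PBS replicate 3 (adjusted p = 0.0977). The median of that list was -0.07. KCNJ11, the pore partner of sulfonylurea receptors and the only gene of its list analysed here, had a log2 fold change of 0.45 (edgeR adjusted p = 0.180).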

How the data were processed

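RNA sequencing libraries of A549 cells, 3 given rhTR11B and 3 given PBS, were grouped by the treatment in the labels. Per the labels' protocols, TRIzol served for extraction and a VAHTS Universal V6 kit for library preparation. The submitters' processing notes name fastp, HISAT, HTSeq, R 3.2.0, DESeq2 and GRCh38, while the role of each tool, the annotation and the strand setting were not given in the sources used here. Reads of overlapping genes, and of close pseudogene copies, may therefore be shared. The authors deposited raw counts and FPKM values per gene symbol. The deposited FPKM equal count over a gene length and the library total for 100% of values (relative tolerance 0.001), so both hold the same measurements.

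Counts were tested with edgeR 4.0.16 in R 4.3.3: filterByExpr (minimum count 10), TMM scaling and the quasi-likelihood test on group alone, adjusted over 13567 genes. The SE is the log2 fold change divided by the square root of F. Alternatives used DESeq2 1.42.0, limma 3.58.1, other scalings, filters and thresholds, log2(FPKM + 1) or log2(FPKM + 0.1), and each library left out. Offsets for GC content (GENCODE 29 transcripts, 90.8% of tested genes) and length were added after seeing the data. No library was a copy of another: within groups, chi-square per degree of freedom was 5.13 to 24.7. On simulated counts of 13488 genes for this comparison, the test recovered 73.1% of genes changed 1.3-fold and 97% of those changed 2-fold. It made 13 false calls among 186. The smallest change simulated was 1.3-fold, so recovery at the changes of ABCC1 (1.18-fold), ABCA2 (1.2-fold) and ABCA3 (1.21-fold) is not known. Every gene was simulated with the same spread between libraries, and no library was made to stand apart as rhTR11B replicate 3 did. The simulated setting therefore differed from the real libraries, and the recovery in these is not known.

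The members and lists were chosen with earlier results of these data known, and compartments were assigned from general knowledge. Full statistics were given for called members and the 3 highest by FPKM of each compartment, and from each list its called members were named, up to 4 by p. DENR, EIF2S2, SOAT1, LPCAT1, LPCAT3 and KCNJ11 were named after their values were seen. Of the tested members, 2 are not reported here singly and count only in totals over members. Coordinates are from RefSeq on GRCh38.p14.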

Additional observations from a re-analysis of the deposited data

How the results depend on the processing

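The count of 488 called genes and the 4 called ABC members moved with most settings. They were 1099 and 7 with DESeq2's Wald test, 1423 and 8 with no low-count filter, and 231 and 2 with a mean of at least 5 CPM. With limma on log2(FPKM + 1) where FPKM averaged 1 or more they were 83 and 0. Before adjustment, 9 of 21 members and 2902 of 10812 genes were at p under 0.05 in that fit. A pseudocount of 0.1 gave 86 and 1. On log2(FPKM + 1) with no filter limma gave 0 and 0. In that fit 8 of 35 members and 3073 of 19876 genes were at an unadjusted p under 0.05. The counts of genes and members were 50 and 0 at an adjusted p under 0.01 (edgeR) and 1612 and 8 under 0.1. The offsets for GC content and length, chosen after seeing the data, gave 922 and 1 by least squares (475 genes higher and 447 lower, against 396 and 92 without) and 770 genes when fitted robustly, with 4 members. With 1 library left out the counts ran from 12 to 1330 genes and from 0 to 8 members. The cause was not tested. The members' median log2 fold change of 0.15 ran from 0.06 to 0.22 with 1 library left out and was 0.02 on log2(FPKM + 1) with no filter.

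Among single members, signs turned in these fits: ABCA12 ran from -0.38 to 0.07 with a library left out (0.05 without rhTR11B replicate 1), ABCB6 from -0.17 to 0.09, ABCF2 from -0.11 to 0.00, ABCB9 from -0.05 to 0.31 and ABCG4 from -0.10 to 0.23, and ABCG4 had -0.01 with offsets by least squares. Of the other comparisons of a member with an alternative, 477 kept direction and side of the threshold, 33 lost the call and 15 gained it. Only the 4 members called in the main fit could lose a call, so all 33 losses are theirs. Most of the 477 are of members that were never called.

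The replicate block gave 1026 genes and 7 members. Same-numbered libraries had correlations of -0.10, 0.05 and -0.01 between their deviations from the group means. Libraries with different numbers had -0.10 to 0.11. With so few libraries these values cannot show whether same-numbered libraries shared a culture or a batch. With at most 27 counts per library in ABCB1 and 18 in ABCC6, depth limits what could be detected there.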
